A study of Rattus norvegicus with 24 samples.

Results

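The 10 genes described here make fatty acids from citrate or govern that pathway: Fasn, Scd, Elovl6, Thrsp, Me1, Acly, Acaca, Srebf1, Slc25a1 and Nr1h3. They were chosen by name, as every probe set of the array whose only gene symbol was one of these 10, which gave 16 of 15923 probe sets and 10 of 10412 genes. The samples were male Sprague-Dawley rats of 4, 10, 18 and 24 months, with no treatment or altered gene named in the labels. From each rat 6 tissues were used here (liver, kidney, bone, spleen lymphocyte, pituitary and hypothalamus), and for each tissue and age RNA of 10 rats was mixed and hybridised to 1 Affymetrix RAE230A array, which gives 24 arrays. The tissues of an age therefore came from the same 10 rats, no group has a second array, and every p-value below compares arrays of pools and not rats.

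New fatty acid is built in the cytosol from acetyl-CoA that leaves the mitochondrion as citrate. Slc25a1 carries the citrate out, Acly cleaves it, Acaca makes malonyl-CoA, Fasn builds palmitate with NADPH that Me1 helps to supply, Elovl6 lengthens it and Scd puts in a double bond. Thrsp (Spot 14) is a small protein tied to lipogenesis in liver and fat. Srebf1 encodes SREBP-1, the transcription factor that raises these enzymes after feeding and insulin, and Nr1h3 encodes LXR alpha, an oxysterol receptor that raises Srebf1. Liver is a main site of this pathway.

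The promoters of 7 members were matched in the RefSeq table of build GRCr8, while Fasn, Elovl6 and Acaca were not. Stretches of 200 bases before the start of transcription are shown for 4 members, since Scd and Thrsp were lower at 10 than at 4 months in both liver and kidney, Slc25a1 was higher late in liver, and Nr1h3 is the only member whose change with age passed limma as first set up. Capitals mark a CCAAT box (CCAAT, or ATTGG on the opposite strand) or a GC box (GGGCGG, or CCGCCC).
Scd, chr1:253231732-253231931, minus strand: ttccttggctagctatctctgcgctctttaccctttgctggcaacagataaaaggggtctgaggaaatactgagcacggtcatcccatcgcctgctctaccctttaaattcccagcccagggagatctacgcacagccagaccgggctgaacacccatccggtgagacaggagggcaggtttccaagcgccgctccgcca
Thrsp, chr1:161138965-161139164, minus strand: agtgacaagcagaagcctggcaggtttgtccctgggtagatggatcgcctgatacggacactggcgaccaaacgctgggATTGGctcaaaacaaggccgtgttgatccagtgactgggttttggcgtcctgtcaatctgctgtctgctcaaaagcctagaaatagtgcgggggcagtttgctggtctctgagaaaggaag
Slc25a1, chr11:96559854-96560053, plus strand: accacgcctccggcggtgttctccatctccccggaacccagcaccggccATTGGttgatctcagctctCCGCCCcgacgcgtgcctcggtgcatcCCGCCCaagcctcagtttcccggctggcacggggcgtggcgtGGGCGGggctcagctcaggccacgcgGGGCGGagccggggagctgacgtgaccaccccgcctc
Nr1h3, chr3:97623230-97623429, minus strand: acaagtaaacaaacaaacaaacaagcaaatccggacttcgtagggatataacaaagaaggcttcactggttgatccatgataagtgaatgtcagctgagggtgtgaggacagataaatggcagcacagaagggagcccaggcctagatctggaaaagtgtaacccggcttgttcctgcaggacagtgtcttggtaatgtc
The following motifs were searched on both strands in windows that ran from 250 bases before to 50 after the start. The sterol regulatory core TCACNCCAC was in 0 of 7 members and in 1.13% of 27457 promoters, and the E-box CACGTG was in 0 of 7 and in 6.65%. The CCAAT box was in 4 of 7 (Acly, Slc25a1, Srebf1 and Thrsp), against 37.7% of all promoters. The GC box was in 5 of 7 (Acly, Me1, Slc25a1, Srebf1 and Thrsp), against 34.9%. These are matches of letters and do not show a site in use.

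Levels are MAS5.0 signals, the brightness of the probes that stand for a gene, scaled by the authors alike on every array. The median signal of an array lay between 213 and 309, with 76.0 to 82.3% of genes at 100 or above. Of several probe sets for 1 gene, that at 100 on the most arrays is given, and 8 of the 10 members were at 100 or above on all 24 arrays. Checked against their labels, the arrays had 14 of 14 hepatocyte markers at 100 in liver at every age and 9 of 9 pituitary markers in pituitary. Kidney had 9 of 9 tubule markers, spleen lymphocyte 7 of 7 lymphocyte markers and bone 10 of 10 bone and cartilage markers. Hypothalamus had 9 to 10 of 10 neuron markers. These counts alone do not separate all tissues. Pituitary had 7 to 10 of 10 neuron markers at 100, and of 14 hepatocyte markers kidney had 8 to 10 and bone 6 to 11. By summed signal, neuron markers had 46127 to 53739 in hypothalamus against 8109 to 10113 in pituitary. Hepatocyte markers had 389128 to 424207 in liver, against 7061 to 8670 in kidney and 1681 to 6425 in bone. Low signals were raised on the 18-month bone array, with a 5th percentile of 33.5 where the median array had 12.8, and the 10-month hypothalamus and 18-month kidney arrays deviated from their tissues together (r = 0.414 over genes, against 0.199 for the next of 240 pairs). The 10-month hypothalamus array also had 11 of 14 hepatocyte markers at 100 and a summed signal of 16332 for them, where the other ages had 1742 to 3408. In such bulk RNA, fewer cells of a type and less RNA per cell cannot be told apart.

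By the probe set kept for each gene, the liver held the highest levels of 8 of the 10 members. The mean signal of Scd over the 4 ages was 6561 in liver (SD 3144) and 400.9 in spleen lymphocyte (SD 85.8), the next tissue, a ratio of 16.4. Thrsp had a mean of 4712 in liver (SD 2011) against 725.4 in bone (SD 312.7), and the lowest liver value, 2915, was above the highest bone value, 1077. For Fasn the means were 3908 in liver (SD 1317) and 1762 in hypothalamus (SD 296), and those ranges did not overlap either.
For Acly the means were 6759 in liver (SD 2192) and 2596 in hypothalamus (SD 525), and for Nr1h3 1231 in liver (SD 180) and 331.8 in kidney (SD 51.0), both without overlap. Srebf1 was also highest in liver, with 1514 (SD 177) against 874.2 in pituitary (SD 131). Acaca and Slc25a1 were highest in liver by mean, with ranges that overlapped those of hypothalamus and kidney. The second probe set of Srebf1 ran from 128.4 to 567.2 in liver, overlapping kidney (208.6 to 409.7) and pituitary (240.1 to 359.9). That of Acaca was 115.1 to 148.2 in liver and higher in pituitary, at 172.1 to 224.5. For Srebf1 and Acaca the place of liver therefore depends on the probe set.
The exceptions were Elovl6 and Me1. Elovl6 had its highest mean in pituitary, 569.6 (SD 72.8), next to 527.3 in liver (SD 225) and 487.6 in hypothalamus (SD 310), and these 3 overlapped. Me1 was highest in kidney, 1017 (SD 231), followed by hypothalamus, 801.2 (SD 158), and liver, 551.3 (SD 177), each overlapping the next. Below the liver most neighbours in the order overlapped: in Scd, for one, the other 5 tissues formed a single overlapping run from 400.9 down to 171.2.

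**Figure D1:**
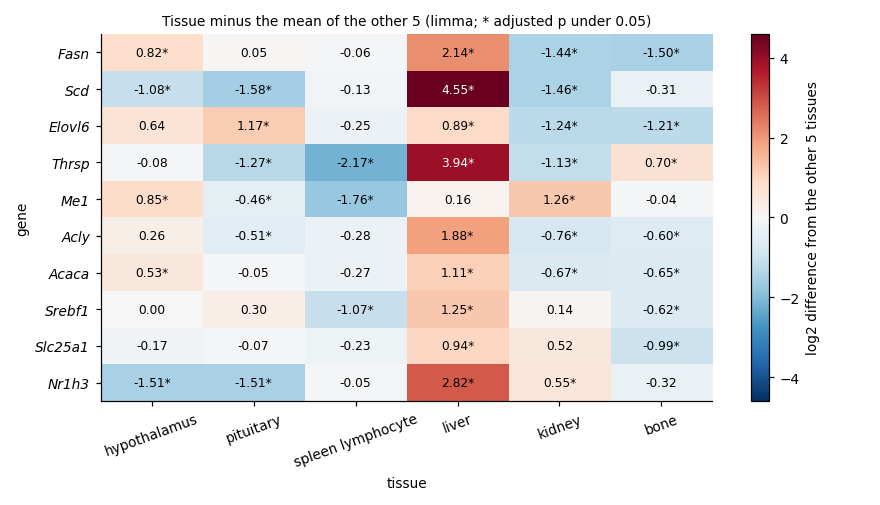
Log2 difference of each gene (rows) between a tissue (columns) and the mean of the other 5, from limma over the 24 arrays, with 4 ages per tissue. Stars mark an adjusted p under 0.05. The liver column is starred for 9 of 10 genes, from 0.89 for Elovl6 to 4.55 for Scd.

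A limma fit with tissue and age as factors set each tissue against the mean of the other 5. In liver 9 of 10 members were higher, all but Me1, where 21.1% of all 9683 genes tested were higher. The differences on the log2 scale were 4.55 for Scd (SE 0.24), 3.94 for Thrsp (SE 0.28), 2.82 for Nr1h3 (SE 0.21), 2.14 for Fasn (SE 0.14) and 1.88 for Acly (SE 0.14). Srebf1 (1.25), Acaca (1.11), Slc25a1 (0.94) and Elovl6 (0.89) followed, with Elovl6 at an adjusted p of 0.00873 in limma. The differences of Srebf1 and Acaca hold for the probe set kept, since their second probe sets were not highest in liver throughout. Nr1h3 was below 100 on all 8 hypothalamus and pituitary arrays and was set to 100 there, which understates its difference.
In kidney Me1 (1.26, SE 0.18) and Nr1h3 (0.55) were higher, 2 of 10 where 22.4% of genes were, and 6 were lower (31.7% of genes), among them Fasn (-1.44) and Scd (-1.46). In bone Thrsp alone was higher (0.70; 26.1% of genes were higher) and 6 were lower (27.7%), with Fasn at -1.50 and Slc25a1 at -0.99. In hypothalamus Fasn (0.82), Me1 (0.85) and Acaca (0.53) were higher (25.2% of genes), and Scd (-1.08) and Nr1h3 (-1.51) lower (32.3%). The second probe set of Acaca was low in hypothalamus, at 113.4 to 134.3, against 172.1 to 224.5 in pituitary and 137.8 to 178.3 in bone. In pituitary Elovl6 (1.17) was higher (30.2%) and 5 were lower (22.8%), among them Scd at -1.58, Thrsp at -1.27 and Me1 at -0.46. The second probe set of Me1 was 577.9 to 752.8 in pituitary, above its 344.4 to 420.7 in bone. The differences of Acaca and Me1 in these tissues therefore hold for the probe sets kept. In spleen lymphocyte 0 were higher (28.6%) and 3 lower (34.0%), which were Thrsp (-2.17), Me1 (-1.76) and Srebf1 (-1.07).

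**Figure D2:**
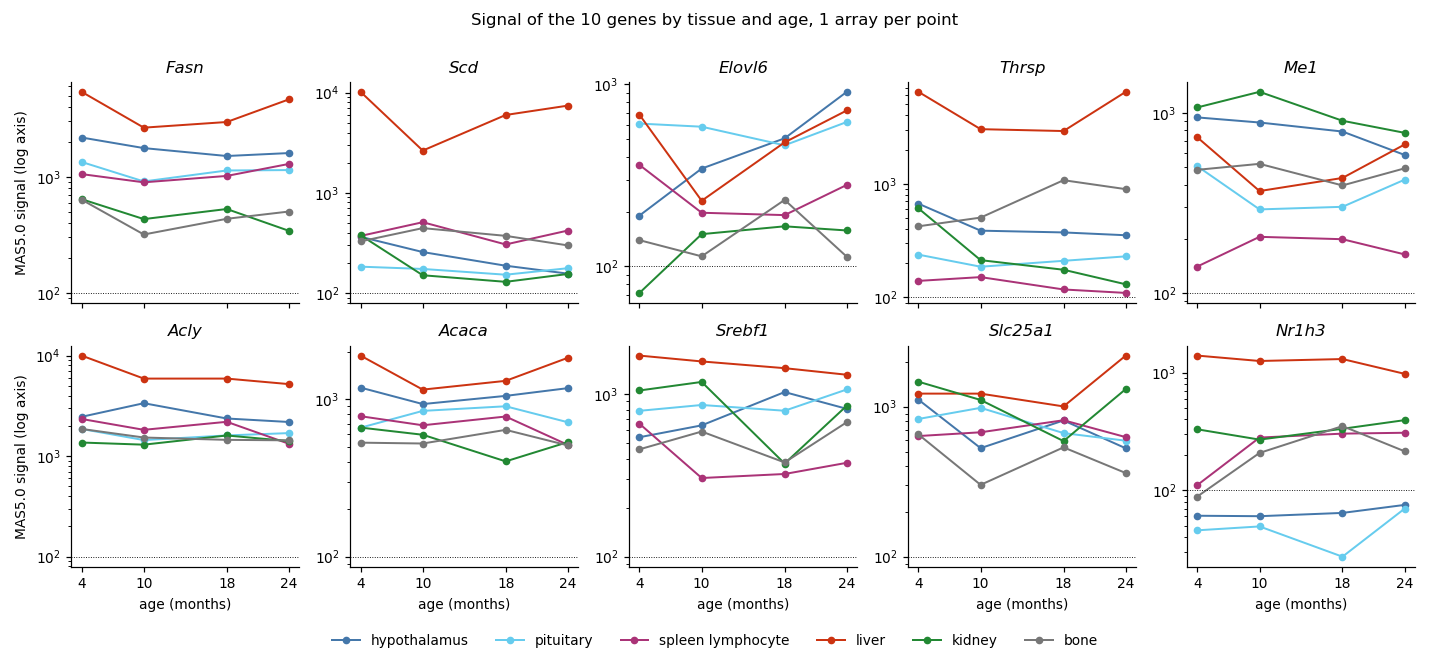
MAS5.0 signal (log axis) of the 10 genes against age in months, 1 line per tissue and 1 array per point. The dotted line marks a signal of 100. In liver Fasn, Scd, Elovl6, Thrsp, Me1 and Acaca dip at 10 months.

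By the probe sets kept, most of the enzymes were lower in liver at 10 than at 4 months. On the single 24-month array Fasn, Elovl6, Me1 and Acaca were within 1.2-fold of their 4-month signal, while Scd was still 1.37-fold lower. Scd, the delta-9 desaturase, had liver signals of 10195 at 4 months, 2640 at 10, 5986 at 18 and 7423 at 24. It was 3.86-fold lower at 10 months than at 4, and 2.27-fold higher at 18 than at 10.
Elovl6, the elongase of palmitate, had 680.6, 229.4, 480.2 and 719.0 at 4, 10, 18 and 24 months. It was lowest at 10 months, by 2.97-fold against 4 months, and at 24 months stood 1.06-fold above the 4-month value. Thrsp had 6453, 3027, 2915 and 6452, so that 10 and 18 months were alike and low while 4 and 24 months were nearly equal.
Fasn, the fatty acid synthase, had 5385, 2647, 2960 and 4639, low at both middle ages and 2.03-fold lower at 10 than at 4 months. Me1, the cytosolic malic enzyme, had 732.5, 368.3, 435.6 and 668.7, which is 1.99-fold lower at 10 months. Acaca, acetyl-CoA carboxylase, had 1892, 1151, 1308 and 1833.
Acly, ATP citrate lyase, did not come back: it had 10009, 5910, 5911 and 5208, highest at 4 months and 1.92-fold lower at 24. Slc25a1, the citrate carrier, had 1222, 1222, 1004 and 2190, with its high value at 24 months, 2.18-fold above 18 months. By the probe sets kept, the 2 regulators moved less, with 1720, 1584, 1440 and 1312 for Srebf1 and 1393, 1254, 1303 and 975.4 for Nr1h3. The second probe set of Srebf1 moved more, with 242.0, 128.4, 295.0 and 567.2, so the course of Srebf1 in liver was not settled.

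**Figure D3:**
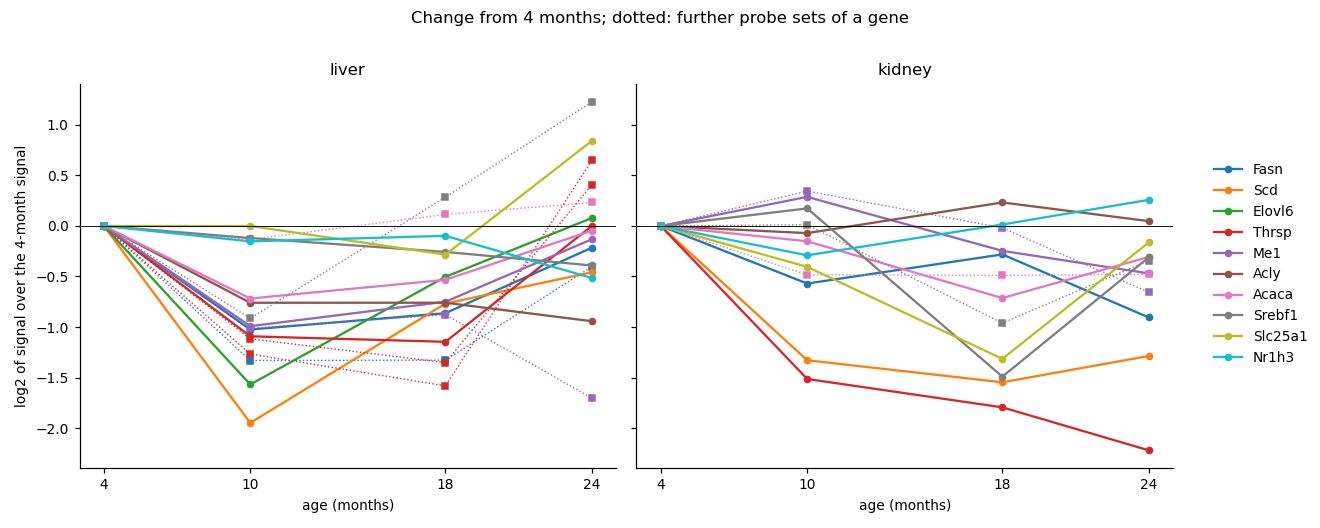
Log2 of the signal over the 4-month signal against age in months, in liver (left) and kidney (right). Solid lines are the probe sets kept, dotted lines further probe sets, and each point is 1 array. Only probe sets at 100 or above at all 4 ages of the tissue are drawn. Elovl6, at 71.5 in kidney at 4 months and higher later, is therefore absent from the kidney panel. In liver Scd is at -1.95 at 10 months, and in kidney Thrsp is at -2.22 at 24.

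Neighbouring ages of a tissue were compared by size alone, with no replicate behind it: a call needed a 2-fold difference and 100 or more on both arrays. By it 4 of 10 members were lower in liver from 4 to 10 months (Fasn, Scd, Elovl6 and Thrsp), where 1.43% of genes were. From 10 to 18 months 2 were higher (Scd and Elovl6; 2.0% of genes), and from 18 to 24 months 2 were higher (Thrsp and Slc25a1; 1.83%). These steps share the 10-month and the 18-month array. The median log2 difference of the 10 was -0.88, 0.11 and 0.53 over the 3 steps, and that of all genes 0.00, 0.04 and 0.01. With quantile normalization between arrays 2 members in place of 4 were called from 4 to 10 months, since Fasn (-0.84) and Thrsp (-0.90) then missed the limit.
Further probe sets gave the same course for Fasn (1507, 598.9, 600.6 and 1140) and for Thrsp (3742, 1726, 1466 and 4964). The second probe set of Me1 had 624.7, 309.8, 339.7 and 191.8, so it stayed low at 24 months where the first came back. The second of Srebf1 had 242.0, 128.4, 295.0 and 567.2, highest at 24 months, where the first was lowest. That of Acaca was near the floor, at 115 to 148.
RNA quality moved with the last step. The log2 ratio of the 3' to the 5' probe set of actin was 2.85, 2.74 and 2.61 in liver at 4, 10 and 18 months and 1.43 at 24, and that of Gapdh 1.77, 1.75, 2.06 and 0.74. Their part in the liver signals was not tested at any age. The summed signal of the hepatocyte markers was 424207, 396251, 393355 and 389128 at the 4 ages. That of 10 macrophage markers was 8214, 8524, 8796 and 11854, and that of 7 lymphocyte markers 1775, 2961, 2334 and 3968. The adipocyte list had 68696, 49010, 41247 and 35033 in liver, mostly from Car3 and Pck1, while Fabp4 was between 5.83 and 9.36. The part of these in the liver values was not tested.

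With 10, 18 and 24 months as the later ages, a limma fit asked which genes differed from 4 months in each tissue. In liver 0 of 10 members passed, where 0.299% of genes did. Scd was at -1.06 (SE 0.43, adjusted p = 0.575 in limma), Acly at -0.82 (SE 0.27, adjusted p = 0.347 in limma), Thrsp at -0.75 (SE 0.42) and Fasn at -0.70 (SE 0.33). All members but Slc25a1 (0.19) were below 0, with a median of -0.64 against 0.01 for all genes. The same change in liver minus that of the other 5 tissues called 0 of 10 (0.114% of genes), with Elovl6 at -0.94 (SE 0.59) and Nr1h3 at -0.80 (SE 0.30, adjusted p = 0.477 in limma).
Steps common to all 6 tissues were fitted with tissue and age as factors. The steps were 10 against 4, 18 against 10, 24 against 18 and 24 against 4 months. In limma 0 of 10 members and 0.0% of all genes passed in each of the 4. Of the 9683 genes, 494, 259, 283 and 581 had an unadjusted p under 0.05 in limma. With no gene changed, a share of 0.05 of those tested would fall there, so the counts are not read as change with age.

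Few other genes of the pathway passed in liver. Of 20 further enzymes of fatty acid synthesis and desaturation, 0 passed in limma between 4 months and the later ages, and their median log2 difference was -0.01. Of 9 genes of NADPH supply, 8 of glycolysis and ChREBP targets, 14 of cholesterol synthesis, 22 of fatty acid oxidation and 35 regulators, 0 passed in each list, with medians of -0.08, -0.16, 0.18, 0.10 and 0.12. Of 11 genes of triglyceride synthesis 1 was lower, Lpin1, a phosphatidate phosphatase, with 1716 at 4 months and 772.5, 662.7 and 711.7 later (-1.26, SE 0.23, adjusted p = 0.0239 in limma). Of 8 genes listed as LXR targets 1 was lower, Nr0b2, which encodes SHP, a repressor of bile acid synthesis. Its signal was 1388 at 4 months and 363.4, 360.8 and 369.4 later (-1.93, SE 0.21, adjusted p = 6.31e-04 in limma). Whether LXR alpha acts on Nr0b2 in these rats was not tested. Lpin1 and Nr0b2 were still low at 24 months. Cyp7a1, another gene of that list, was at -1.99 (SE 0.42, adjusted p = 0.0564 in limma) and did not pass.

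**Figure D4:**
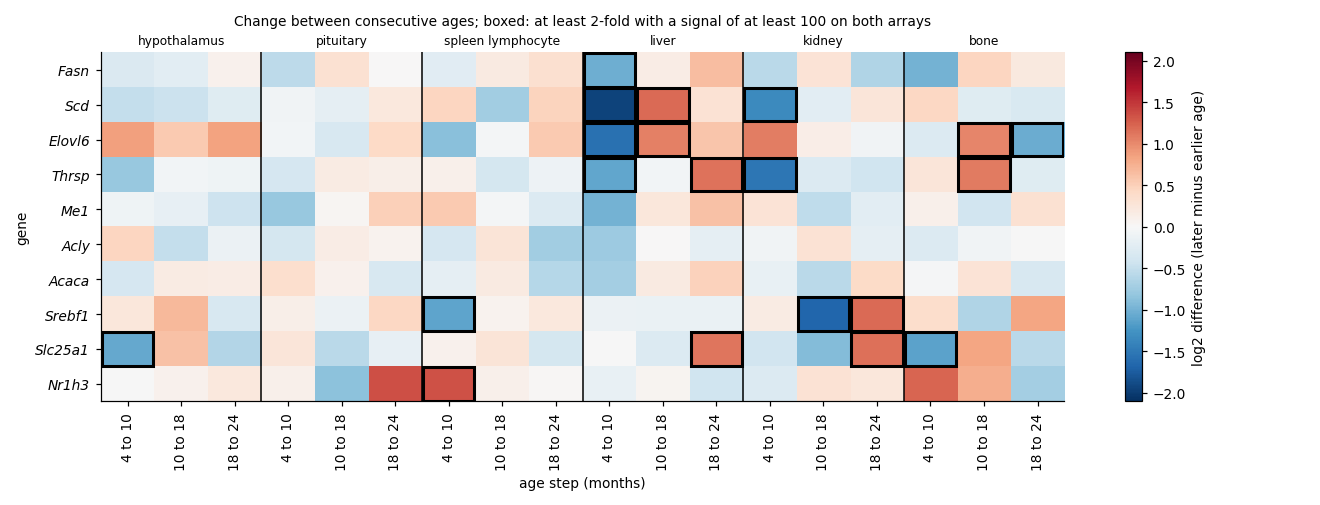
Log2 difference between consecutive ages (later minus earlier, columns, grouped by tissue) for the 10 genes (rows), each from 2 arrays. Boxes mark at least 2-fold with a signal of 100 on both arrays, and 8 of the 20 boxes lie in liver. Of all genes, 1.43% were called lower there from 4 to 10 months. From 10 to 18 months 2.0% were called higher, and from 18 to 24 months 1.83%.

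Over the 18 steps, 172 pairs of member and step had both arrays at 100, of which 9 were called higher and 11 lower. The share of all genes over the 18 steps together was not counted, so these totals cannot be set against it. In the steps with a member called, the share of all genes called alike differed by step. It ran from 0.6% (kidney, 4 to 10 months, lower) to 6.97% (bone, 10 to 18 months, higher). In kidney Scd and Thrsp were lower from 4 to 10 months, 2 members where 0.6% of genes were lower. Thrsp had kidney signals of 608.5, 213.0, 175.3 and 130.5 at 4, 10, 18 and 24 months, and Scd 377.2, 150.1, 129.0 and 154.6. Both were highest at 4 months and stayed low, also at 24 months, with later values not far above 100. Further probe sets of Thrsp had 267.9 and 102.9 in kidney at 4 months and were below 100 at the later ages. Elovl6 went the other way in kidney, with 71.5 at 4 months, under 100, and 150.4, 166.1 and 157.6 later.
In limma, Thrsp in kidney was at -1.84 (SE 0.42, adjusted p = 0.369) and Scd at -1.39 (SE 0.43, adjusted p = 1.0), so 0 of 10 members passed where 0.0207% of genes did. With array weights Thrsp passed (-2.04, adjusted p = 0.0473 in limma). Srebf1 in kidney had 1050, 1185, 373.5 and 847.2, and it was 3.17-fold lower at 18 than at 10 months (3.41% of genes were lower) and 2.27-fold higher at 24. Slc25a1 in kidney had 1467, 1109, 589.6 and 1310, also low at 18 and 2.22-fold higher at 24 months (2.51% of genes were higher). Both rest on the 18-month kidney array, which deviated together with the 10-month hypothalamus array, and the part of that in these values was not tested.
In hypothalamus Elovl6 had 190.3, 344.7, 505.4 and 910.0, higher at each later age and 4.78-fold higher at 24 than at 4 months. Scd there had 363.4, 255.9, 186.9 and 155.8, lower at each later age. Slc25a1 had 1114, 529.2, 809.4 and 528.0, and its lower signal at 10 than at 4 months was the only step called in this tissue (2.48% of genes were lower). That array is the one with hepatocyte markers, and its log2 actin 3' to 5' ratio was 3.09 against 1.89, 1.21 and 1.10 at 4, 18 and 24 months; their part was not tested. In limma 0 of 10 members passed in hypothalamus (0.248% of genes), with Elovl6 at 1.51 (SE 0.54, adjusted p = 0.393), and 0 of 10 in pituitary (0.0826%).
In bone Slc25a1 was 2.17-fold lower at 10 than at 4 months (5.85% of genes were lower). Thrsp and Elovl6 were higher at 18 than at 10 months (6.97% of genes were higher), and Elovl6 was lower again at 24 (5.78%). Thrsp in bone had 422.8, 504.4, 1077 and 897.9, and Elovl6 139.4, 113.6, 232.0 and 113.0. A second probe set of Thrsp had 130.4, 421.3, 667.6 and 565.9 there. It rose by 1.69 on the log2 scale from 4 to 10 months and by 0.66 from 10 to 18. The step at which Thrsp rose in bone therefore depends on the probe set. Adipocyte markers in bone, a tissue whose marrow holds fat cells, summed to 7053, 8628, 9583 and 11693, with 6 to 8 of 10 at 100. Of 8 tested, 2 were higher after 4 months in limma, Fabp4 (1.43) and Pck1 (1.80), and the median was 0.98. Their part in the signal of Thrsp was not tested. With arrays centred on the median these calls of Thrsp (0.76) and Elovl6 (0.69 and -0.73) were lost, and the 18-month bone array is the one with raised low signals. In the 7 steps with no member called, all 3 of pituitary and 2 each of hypothalamus and spleen lymphocyte, 2.49% of genes were called.

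Nr1h3, the LXR alpha gene, was higher after 4 months in spleen lymphocyte and bone. In spleen lymphocyte it had 110.9 at 4 months, then 280.6, 303.1 and 308.3, and the 3 later arrays lay close together. In bone it had 88.7, then 207.8, 351.2 and 214.5. The kidney values, 329.8, 269.6, 333.1 and 394.6, did not separate 4 months from later.
In limma the later ages were 1.42 above 4 months in spleen lymphocyte (SE 0.27, adjusted p = 0.0296) and 1.32 in bone (SE 0.27, adjusted p = 0.00544), higher on 3 of 3 later arrays in each. Nr1h3 was the only member of 10 that passed in either tissue, where 0.475% and 7.51% of genes did. Nr1h3 sat at the floor on all hypothalamus and pituitary arrays, which then add no spread. Without those 2 tissues, a fit chosen after the data were seen, the call in bone stood (adjusted p = 0.0318 in limma) and that in spleen lymphocyte did not (adjusted p = 0.108 in limma). An F test of whether the change differed between tissues gave an adjusted p of 0.0399 in limma for Nr1h3 over all 6 (1 of 10 members, 2.04% of genes) but 0.121 over the 4 that measured it (0 of 10, 1.57% of genes), so a difference between tissues was not shown. The 4-month bone value lay below 100 and was set to 100, which understates the change, and the spleen value lay just above it.
The call in spleen lymphocyte was lost under several settings, such as a floor of 50 (adjusted p = 0.0573 in limma) and with any later age left out. From 4 to 10 months Nr1h3 and Srebf1 were both called in spleen lymphocyte, Nr1h3 2.53-fold higher and Srebf1 2.15-fold lower (3.7% of genes in either direction). Srebf1, which LXR alpha is known to raise, had 655.9, 304.4, 322.2 and 377.4 there.
Macrophages use LXR alpha. The summed signal of 10 macrophage markers was 18060 in spleen lymphocyte at 4 months and 24280, 27246 and 25898 later, with 9 of 10 at 100 on each array, and 1 of 10, Hmox1, was called higher. In bone it was 34448, 42882, 40902 and 50763, with 9 to 10 of 10 at 100, lowest at 4 months like Nr1h3 but not in step with it later. There 0 of 10 were called higher in limma and 1 lower, Csf1r (-1.34). Other marker lists of bone shifted too: 10 bone and cartilage markers summed to 93718, 49431, 36022 and 29618 (8 of 10 called lower), and 5 marrow and blood markers to 57550, 78565, 89279 and 111072 (1 of 5 called higher). Hmox1, a macrophage marker in the list, had 639.8, 2378, 1997 and 1807 in spleen lymphocyte and 990.4, 2327, 1926 and 1692 in bone. Their part in the change of Nr1h3 was not tested. The actin ratio of spleen lymphocyte was 3.74 at 4 months and 2.63, 2.33 and 1.88 later, and its part was not tested.

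**Figure D5:**
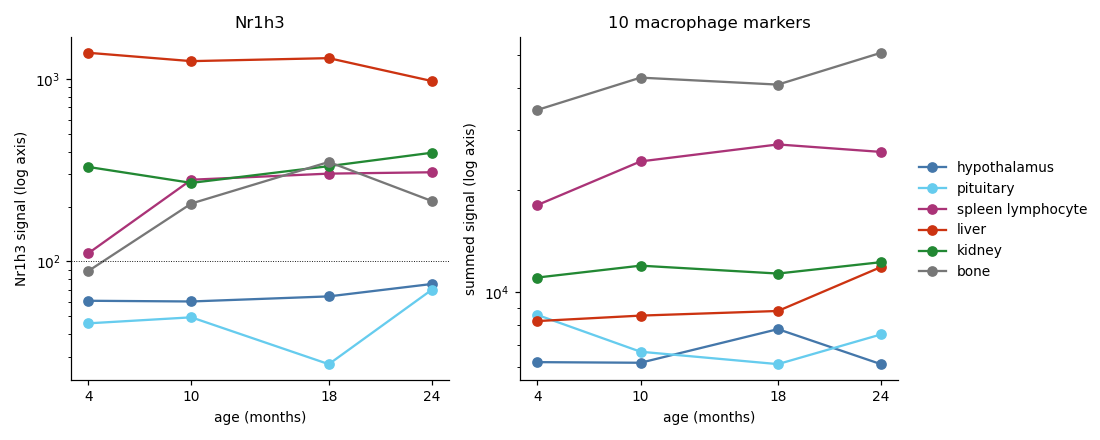
Signal of Nr1h3 (left) and summed signal of 10 macrophage markers (right), both on log axes, against age in months, with 1 line per tissue and 1 array per point. The dotted line marks 100. In spleen lymphocyte and bone both quantities are lowest at 4 months.

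As a description, signals were centred within each tissue and correlated over the 24 arrays, which share rats within an age. Scd and Thrsp had r = 0.684, Scd and Me1 0.576 and Fasn and Thrsp 0.566, the highest among pairs of members. Srebf1 had r = -0.14 with Fasn and 0.03 with Scd. Probe sets of one gene had r = 0.717 for Fasn and 0.848 and 0.437 for Thrsp, but 0.319 for Me1, 0.228 for Srebf1 and 0.164 for Acaca, so the courses of the last 3 depend on the probe set. The genes most like a member were Top2b for Acly (r = 0.869), Cklf and Rin3 for Nr1h3 (0.873 and 0.857), Stub1 for Slc25a1 (0.86), Uvrag for Srebf1 (0.856) and Dtd2 for Fasn (0.811).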

How the data were processed

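Per the labels and the methods, male Sprague-Dawley rats of 4 ages gave RNA that was pooled from 10 rats per tissue and age and hybridised to RAE230A arrays. The deposited values are signal intensities that the authors made with MAS5.0 (version not given in the sources used here), scaled per array and on a linear scale. Detection calls and change p-values were not used. The adrenal gland was not analysed here.

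Members and lists were chosen with earlier results of these data known. Of the probe sets, 12789 had 1 symbol and 312 several, and 1870 genes had several probe sets, of which the one at 100 on the most arrays was kept (ties by the higher mean). Signals were floored at 100 and put on the log2 scale, and genes at 100 on at least 4 arrays (9683) were tested with limma 3.58.1 in R 4.3.3 at a Benjamini-Hochberg adjusted p of 0.05. The fit of later ages against 4 months treated the 3 later arrays of a tissue as replicates, so a real change among them counts as spread. The 2-fold rule used linear signals of at least 100 on both arrays. With 1 array per group, the number of arrays limits the precision.

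Named were all members, list genes past the threshold, Cyp7a1 just short of it, the genes most like a member (3 each, printed in part), and marker lists. Alternatives were other floors, filters, normalizations, probe set rules, array weights, fold limits and leaving out ages or tissues. Chosen after seeing the data were leaving out 3 arrays, leaving out tissues, singly or hypothalamus with pituitary, from the single-tissue fits, and the F tests. Scripts were tested on simulated data, with Python 3.11.15, numpy 2.4.6, pandas 2.3.3 and matplotlib 3.10.9.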

Additional observations from a re-analysis of the deposited data

How the results depend on the processing

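The tissues of an age share rats, and age as a factor pairs them in the fits of tissue levels and common age steps. The fits of later ages against 4 months had no factor for the 3 later ages and so did not use this pairing. That holds also for liver minus the other tissues and for the F tests. Of the 10 members in 6 tissues, 2 calls against 4 months stood; a floor of 50 and a pseudocount of 50 left 1 and a floor of 200 left 0, and leaving out each later age left 1 in every case. Nr1h3 in bone lost its call at a floor of 200 (0.32, adjusted p = 0.643 in limma) and kept it with each age or other tissue left out (1.08 to 1.46). Nr1h3 in spleen lymphocyte lost it at a floor of 50 (1.42), at a floor of 200 (0.57, adjusted p = 0.454 in limma), with a pseudocount (1.11, adjusted p = 0.124), without any 1 later age (1.40 to 1.46, adjusted p 0.0929 to 0.164), and, chosen after seeing the data, without hypothalamus (adjusted p = 0.0506), pituitary (adjusted p = 0.0646) or both (adjusted p = 0.108). A higher floor replaces the low 4-month signals by its own value; the cause of the other losses was not tested. No setting called a member for liver against the other tissues or for the common age steps. With a later age left out, Slc25a1 in liver ran from -0.14 (without 24 months) to 0.42, and Me1 in liver against other tissues to -0.13 with the mean over probe sets; neither was called. Of the 20 calls between consecutive ages, a fold of 1.5 gave 44 and a fold of 3 gave 2. In liver from 4 to 10 months these folds gave 7 and 1, and quantile normalization 2. The shares of all genes under these settings were not counted, so the counts of members cannot be set against them. The liver count of all genes called ran from 0 without 24 months to 87 at a floor of 200, against 29, and that of bone from 362 to 1225, against 727. Signals near or below 100 limit Nr1h3 outside liver and kidney, Elovl6 in kidney and bone, and Scd and Thrsp in kidney after 4 months. They also limit Thrsp and Me1 in spleen lymphocyte and Scd in pituitary.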
